A study of Hordeum vulgare with 22 samples.

Results

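Cyclins and the genes that copy DNA were followed through the young spike of 2 barley (Hordeum vulgare) lines, Bowman and the many-noded dwarf line mnd1.a. A gene was a member when its annotation began with cyclin, or named a cyclin-dependent kinase, DNA replication, minichromosome maintenance, DNA polymerase, replication factor or proliferating cell nuclear antigen. The rule found 96 of the 24318 genes in the table, and 90 of them had enough counts to be tested. The 6 others were 3 B1 cyclins, a cyclin-like protein, a cyclin-dependent kinase C and a kinase inhibitor.

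The wild-type line was cv. Bowman, and the other line was near-isogenic to it and carried the mnd1.a allele, with no further allele or treatment given in the labels. Plants grew in long days, and inflorescences with their base and the small leaves under them were collected near midday. The Waddington stages were W2.0, with double ridges, then W3.5 and finally W5.0, which the table calls the awn primordium stage. Bowman had 3, 4 and 4 libraries at these stages and mnd1.a had 3, 3 and 4. The labels do not state whether each library is a separate set of plants. The p-values therefore cover the spread between these libraries, which may be technical. The tissue is a mixture, and fewer dividing cells cannot be told apart from less RNA per cell. A near-isogenic line is a single introgression line, so donor segments other than mnd1.a may remain in it.

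Cell division is driven by cyclin-dependent kinases (CDKs), which act only when bound to a cyclin. D-type cyclins act at the entry into the cycle, B-type cyclins at mitosis, and small inhibitor proteins hold the kinases back. DNA is unwound by the MCM helicase together with GINS and copied by polymerases alpha, delta and epsilon. These polymerases are held on the template by a sliding clamp, PCNA, which the clamp loader replication factor C (RFC) places on DNA. In a young spike these genes are most active where meristems and primordia divide.

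The 96 members fell into 48 genes for cyclins, kinases and their regulators, 31 for the replication machinery and 17 for other DNA polymerases. The first set held 9 B-type, 4 D-type and 14 other cyclins, 12 CDKs, 7 CDK inhibitors, 1 CDK regulatory subunit and 1 cyclin-D-binding protein. The second held 3 PCNA genes, 2 MCM genes, 4 GINS genes, 11 RFC genes, 10 replicative polymerase genes and 1 further replication helicase. The members were spread over all chromosomes, 7 of them on 7H, where MND1 lies, and 9 on unplaced sequence. The nearest member on 7H lay 25.7 Mb from MND1. A pair of delta polymerase genes, HORVU1Hr1G076040 and HORVU1Hr1G076080, had identical counts and cannot be told apart.

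Total estimated counts per library ran from 11436651 to 21596190. The MND1 transcript lay at 6.15 to 30.6 CPM (counts normalised for sequencing depth by TMM) in Bowman and at 2.39 to 6.71 CPM in mnd1.a, with no overlap within a stage. Genes annotated as MADS-box factors or knotted-1 homeobox proteins, the markers of inflorescence tissue, summed to 715 to 940 CPM in Bowman and 883 to 993 CPM in mnd1.a at W2.0, and 33 of the 49 were above 0 in every library. At W3.5 they summed to 1193 to 1491 CPM in Bowman and 958 to 1096 CPM in mnd1.a, with 0 of 42 tested called higher and 12 lower. At W5.0 the sums were 1371 to 1712 CPM and 1213 to 1228 CPM, with 2 called higher and 7 lower. The marker sums of the lines overlapped at W2.0 only. The code in the sample titles began with 1328 for Bowman W2.0, mnd1.a W2.0 and mnd1.a W5.0, and with 1327 for the 3 other groups. Transcripts annotated as senescence-associated protein or rRNA intron-encoded homing endonuclease are called ribosomal-RNA-like here, and their sequences were not checked. They summed to 12752 to 28667 CPM in the 1328 libraries and to 2126 to 3551 CPM in the 1327 libraries. At W5.0 the lines therefore differed in code prefix as well as in genotype, and these cannot be told apart, while at W2.0 and W3.5 both lines shared a prefix.

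The first question was whether the lines differed in these genes at a given stage. At W2.0 none of the 90 members was called different, at an adjusted p under 0.05 by the edgeR quasi-likelihood test, with Benjamini-Hochberg correction across the 21132 genes tested, and DESeq2 called none either. Among all genes 0.790% were called at this stage. At an unadjusted p under 0.05 there were 6 members, against 8.97% of all genes. The members' median log2 fold change of mnd1.a over Bowman was -0.09, and that of all genes was -0.01. Green leaf genes, such as those for chlorophyll a-b binding proteins, did differ at W2.0, with 27 of 59 called higher in mnd1.a and 0 lower. They summed to 928 to 1615 CPM in mnd1.a and 323 to 571 CPM in Bowman, and the part of leaf tissue was not tested.

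At W3.5, 2 members were higher in mnd1.a and none lower, where 1.77% of all genes were higher and 2.13% lower. At W5.0, 17 members were higher and 7 lower, where 15.0% of all genes were higher and 15.2% lower. The members' share of 26.7% called at W5.0 was thus close to the background of 30.2%. The sides were uneven among the classes. Of the 31 replication machinery genes, 9 were higher and 1 lower at W5.0, with a median log2 fold change of 0.23 and 26 of 31 above 0. The delta polymerase pair with identical counts enters these tallies as 2 genes. Of the 42 tested cyclins, kinases and regulators, 6 were higher and 5 lower, with a median of -0.09. The median over all genes was -0.01, and 10373 of 21132 lay above 0. How many of all genes had no overlap between the lines was not counted, so overlap only describes single genes below.

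**Figure D1:**
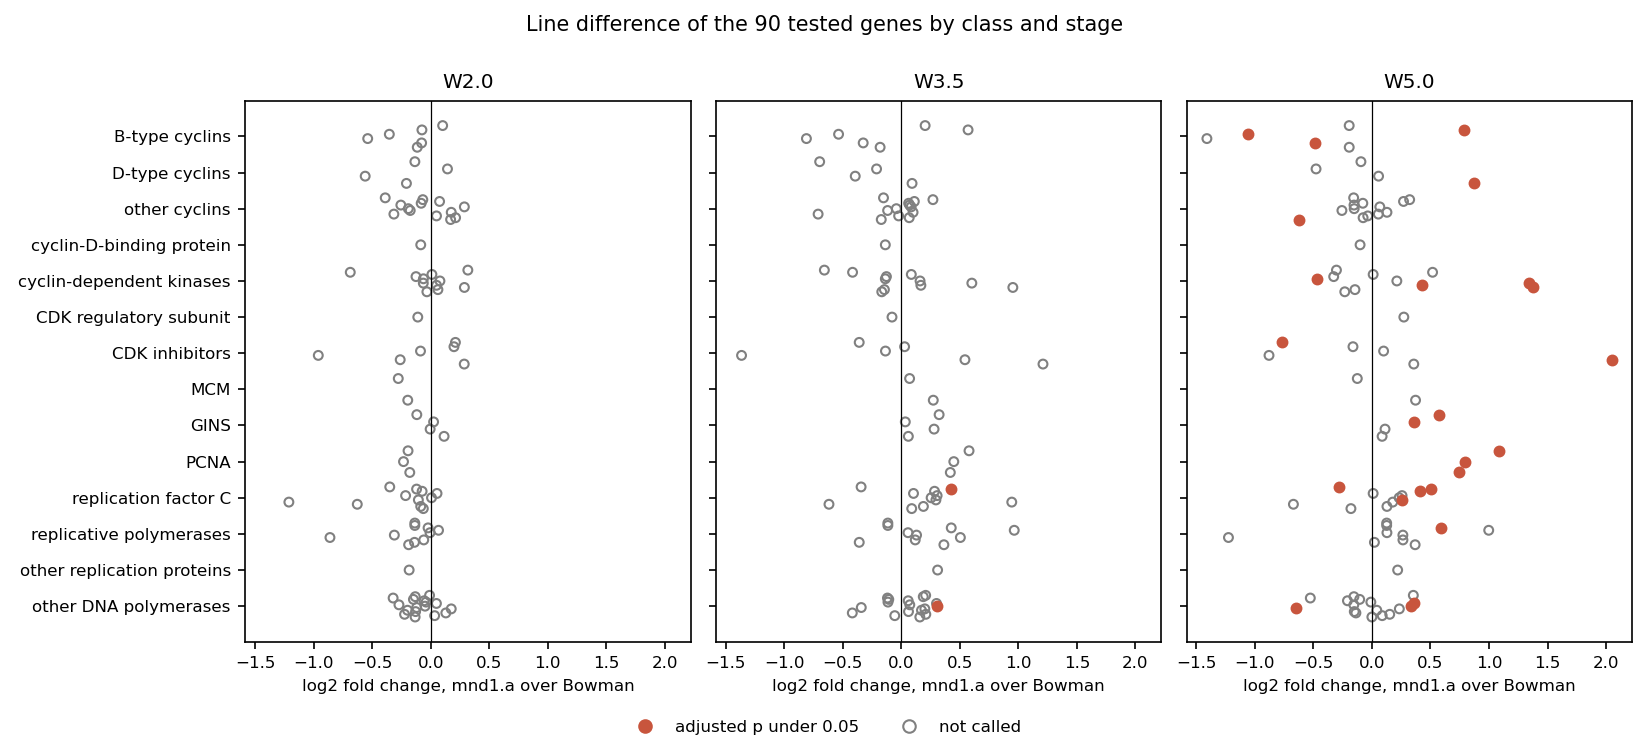
Log2 fold change of mnd1.a over Bowman (x axis) for the 90 tested genes, grouped by class (y axis), with 1 panel per stage. Each point is a gene and filled points have an adjusted p under 0.05: none at W2.0, then 2, then 24, with all 3 PCNA genes to the right of 0 at W5.0.

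Bowman replicates 2 and 3 at W5.0 were low for many of these genes, and without both of them 9 members were called, 6 higher and 3 lower. Calls over all genes fell in the same way, from 6381 to 2396. Leaving out single libraries gave 18 to 30 called members, and 17 of the 24 calls held each time. Removing both libraries was an alternative chosen after seeing the data.

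All 3 genes for PCNA, the sliding clamp and a common marker of cells in S phase, were higher in mnd1.a at W5.0. The PCNA gene on 6H, HORVU6Hr1G088120 (565728569 to 565730797), had 338, 397 and 260 CPM in Bowman at W2.0, and 259, 234, 143 and 254 CPM at W3.5. At W5.0 it had 219, 159, 156 and 248 CPM in Bowman, against 325, 317, 311 and 354 CPM in mnd1.a. Every mnd1.a library thus lay above every Bowman library at W5.0, while the lines overlapped at both earlier stages. In mnd1.a the same gene had 313, 300 and 267 CPM at W2.0 and 352, 314 and 226 CPM at W3.5, so it stood at about the same level throughout. The W5.0 difference was 1.67-fold, a log2 fold change of 0.74 ± 0.19 (SE, adjusted p = 0.00687).

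The PCNA gene on 2H, HORVU2Hr1G088030 (631619646 to 631620742), had 101, 67.6, 64.3 and 100 CPM in Bowman at W5.0 and 143, 141, 142 and 150 CPM in mnd1.a. Its log2 fold change was 0.80 ± 0.18 (adjusted p = 0.00301). The unplaced PCNA gene HORVU0Hr1G031140 had 28.3, 18.8, 16.4 and 30.1 CPM in Bowman at W5.0 and 44.8, 52.6, 44.7 and 56.7 CPM in mnd1.a. It gave the widest gap of the 3, 2.12-fold, with a log2 fold change of 1.08 ± 0.20 (adjusted p = 0.000848). All 3 share an annotation, and how reads were divided among such similar genes is uncertain.

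At W3.5, where both lines carried prefix 1327, the PCNA log2 fold changes were 0.58 ± 0.22, 0.45 ± 0.19 and 0.42 ± 0.20 for the unplaced, 2H and 6H genes, and none was called (adjusted p = 0.133, 0.18 and 0.239). At W2.0 they were -0.19, -0.23 and -0.18. The 3 W5.0 calls held without any single library. Without Bowman replicates 2 and 3 the unplaced gene kept its call at 0.77 (adjusted p = 0.0282), while the 2H gene stood at 0.53 (adjusted p = 0.0868) and the 6H gene at 0.49 (adjusted p = 0.155).

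**Figure D2:**
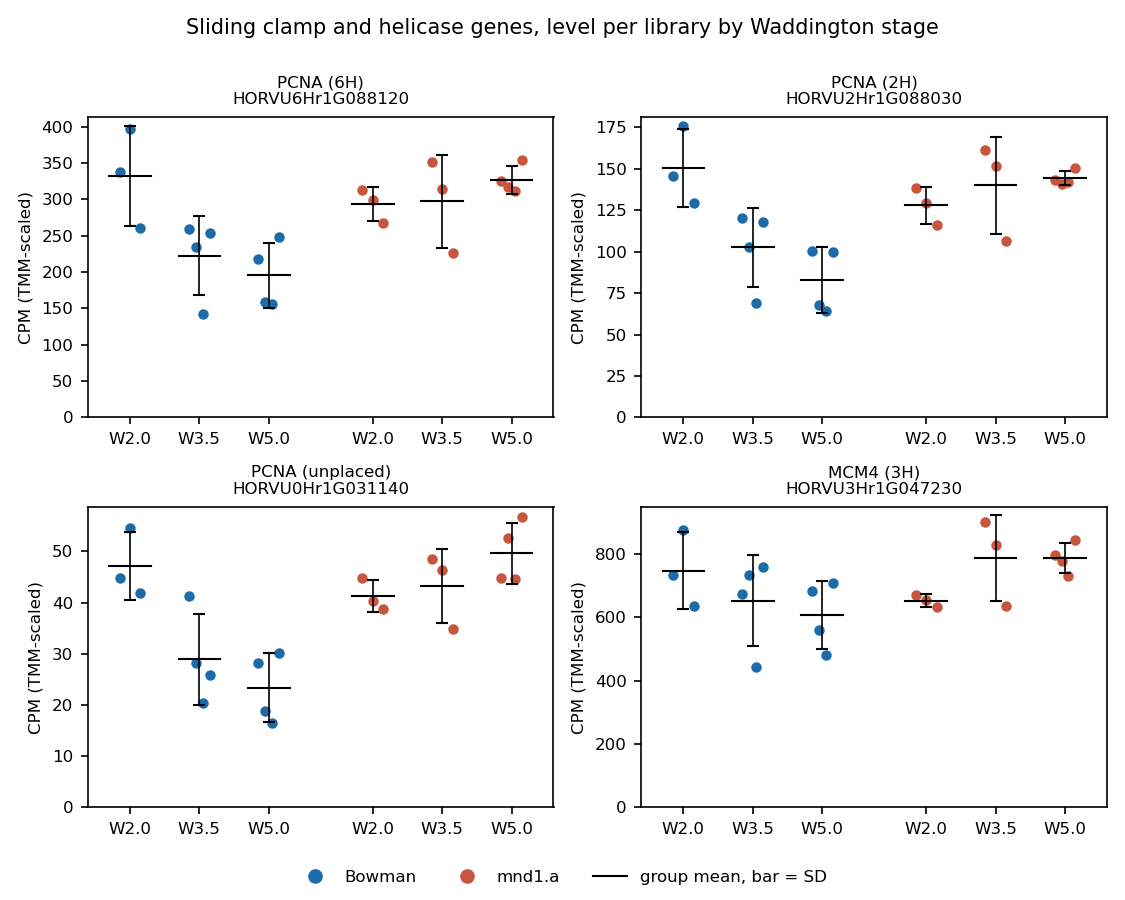
TMM-scaled CPM per library (y axis) of the 3 PCNA genes and MCM4 by Waddington stage (x axis), Bowman on the left and mnd1.a on the right of each panel. Points are libraries, lines are group means and bars are SD. At W5.0 every mnd1.a library lies above every Bowman library in all 4 panels, although the MCM4 difference was not called. The share of all genes separated in this way was not counted, and 8714 of 21132 had an unadjusted p under 0.05 there.

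The helicase subunit MCM4 (HORVU3Hr1G047230, 3H, 320765160 to 320770243) followed the same outline without passing the test. It had 683, 559, 480 and 707 CPM in Bowman at W5.0 and 797, 776, 730 and 842 CPM in mnd1.a, with a log2 fold change of 0.37 ± 0.15 (adjusted p = 0.0744). The other MCM gene, MCM6 (HORVU1Hr1G071560), had 41.8, 36.3, 40.5 and 42.6 CPM in Bowman and 39.5, 36.7, 31.5 and 40.2 CPM in mnd1.a. The lines overlapped for MCM6, and its log2 fold change was -0.12 ± 0.10 (adjusted p = 0.365). Both encode subunits of the same ring-shaped complex, and no other subunit was among the members.

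Of the 4 GINS genes, which encode the complex that activates the helicase, 2 were higher in mnd1.a at W5.0. PSF2 (HORVU1Hr1G084860) had 27.4, 29.4, 28.5 and 31.8 CPM in Bowman and 33.9, 42.2, 38 and 35.8 CPM in mnd1.a, without overlap (log2 fold change 0.36 ± 0.09, adjusted p = 0.00505). PSF1 (HORVU1Hr1G072930) had 14.9, 12.2, 11.2 and 17.8 CPM against 23.6, 19.8, 17.9 and 21.9 CPM (0.57 ± 0.17, adjusted p = 0.0174). The PSF1 groups only just failed to overlap, and its call was lost without Bowman replicate 2, Bowman replicate 3 or mnd1.a replicate 1, with an adjusted p of up to 0.0655. PSF3 (HORVU3Hr1G077740) overlapped between the lines, at 15.67 to 20.6 CPM in Bowman and 17.3 to 20.1 CPM in mnd1.a.

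Among the 11 clamp loader (RFC) genes, 3 were higher and 1 lower in mnd1.a at W5.0. The gene annotated as RFC subunit 3 on 2H, HORVU2Hr1G083560 (606226132 to 606231910), had 80.1, 58.5, 84.7 and 77.6 CPM in Bowman at W5.0 and 103.5, 107.6, 107 and 109 CPM in mnd1.a. It was also among the 2 members called at W3.5, with 87.2, 82.5, 72.6 and 73.1 CPM in Bowman and 110, 112 and 96.3 CPM in mnd1.a. The lines were apart at both later stages and overlapped at W2.0. Its log2 fold changes were 0.43 ± 0.11 at W3.5 (adjusted p = 0.0361) and 0.50 ± 0.10 at W5.0 (adjusted p = 0.0015). The W5.0 call held without any single library and without Bowman replicates 2 and 3 (adjusted p = 0.0135).

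RFC subunit 4 on 2H (HORVU2Hr1G095220) had 70.8, 61.5, 57.7 and 74.6 CPM in Bowman at W5.0 and 89.9, 87.2, 79 and 95.6 CPM in mnd1.a (0.41 ± 0.12, adjusted p = 0.018). This call was lost without Bowman replicate 2, Bowman replicate 3 or mnd1.a replicate 4, with an adjusted p of up to 0.0664. The 2 genes annotated as RFC subunit 5 differed in opposite directions. HORVU5Hr1G104200 was higher (0.26 ± 0.09, adjusted p = 0.0445) and HORVU1Hr1G050450 lower (-0.28 ± 0.10, adjusted p = 0.0447). These were the weakest calls of the class, lost in 7 and in 6 of the 8 fits that left out a library. Among the clamp loader genes that did not pass the test were RFC subunit 1 (HORVU7Hr1G091790) at -0.18 ± 0.10 and RFC subunit 3 on 4H (HORVU4Hr1G015110) at 0.01 ± 0.07.

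Of the 10 genes annotated for the replicative polymerases 1 was called, and 9 lay above 0 at W5.0, with a median log2 fold change of 0.20. The delta pair with identical counts enters here as 2 genes. The called gene, polymerase epsilon subunit B2 (HORVU3Hr1G021820), had 40.3, 25.6, 26 and 40.3 CPM in Bowman and 53, 48.3, 45.3 and 52.6 CPM in mnd1.a (0.59 ± 0.18, adjusted p = 0.0174). Its low Bowman values again came from replicates 2 and 3, and the call was lost without either of them (adjusted p of up to 0.0681). Polymerase alpha subunit B (HORVU7Hr1G102300) had 91.1, 64.2, 55.5 and 98.8 CPM in Bowman and 104.4, 95.4, 92.6 and 107.6 CPM in mnd1.a. That gene encodes a subunit of the complex with primase that starts new strands, and it overlapped between the lines (0.37 ± 0.21, adjusted p = 0.191). The delta small subunit (HORVU4Hr1G082870) stood at 0.26 ± 0.12 (adjusted p = 0.0958), and the helicase annotated for DNA replication (HORVU2Hr1G105420) at 0.22 ± 0.17 (adjusted p = 0.339).

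Replication genes varied together between libraries of the same group. In Bowman at W3.5, replicate 3 had the lowest value of the 4 libraries in 28 of the 31 replication machinery genes (90.3%), against 28.0% of all genes with differing values. Among cyclins, kinases and regulators it was lowest in 13 of 42. Core histone genes, which are made in S phase, also had replicate 3 lowest there, in 157 of 171. In Bowman at W5.0, replicates 2 and 3 were the lowest pair in 24 of 31 replication genes (77.4%), in 149 of 171 core histone genes and in 4206 of the 21008 genes with differing values. In mnd1.a at W3.5, replicate 3 was lowest in 27 of 31 (87.1%), against 38.1% of all genes. Core histones did not share that order, with replicate 3 lowest in 68 of 171 and replicate 2 in 89 of 171.

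The spread of the sum differed between groups. The 31 genes summed to 2842 to 3141 CPM in mnd1.a at W5.0, to 2471 to 3325 CPM in mnd1.a at W3.5 and to 2558 to 2762 CPM in mnd1.a at W2.0. In Bowman they summed to 2544 to 3311 CPM at W2.0, 1834 to 2883 CPM at W3.5 and 2108 to 2756 CPM at W5.0. At W5.0 the sums of the lines did not overlap, and at the earlier stages they did.

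**Figure D3:**
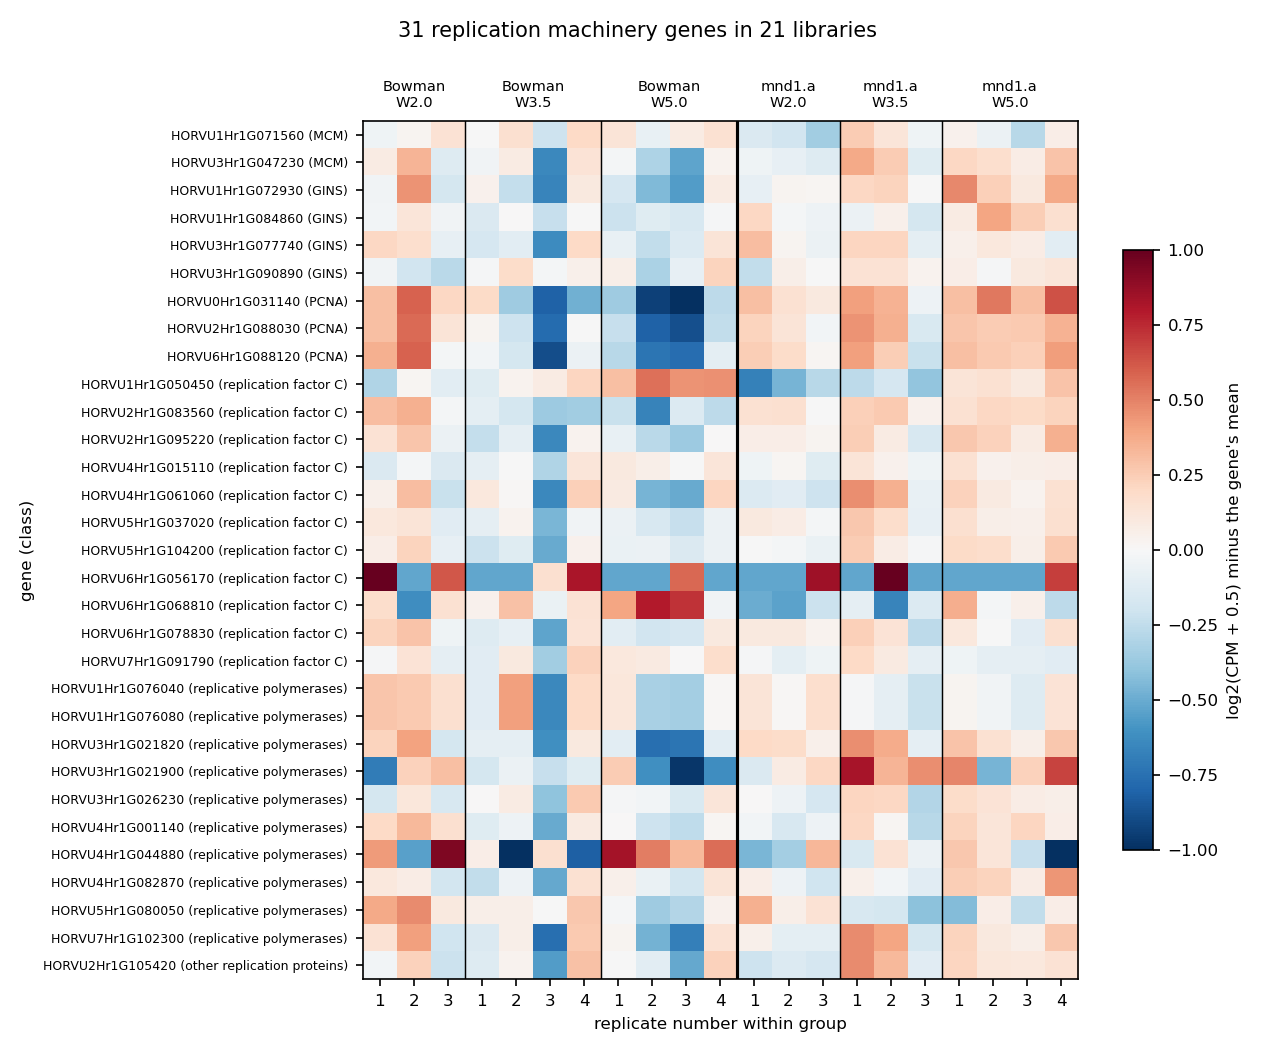
Log2(CPM + 0.5) minus each gene's mean (colour, drawn between -1 and 1) for the 31 replication machinery genes (y axis) in the 21 libraries (x axis, replicate number within group). Bowman W3.5 replicate 3 and Bowman W5.0 replicates 2 and 3 appear as blue columns, and mnd1.a W5.0 as mostly red columns.

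Core histones and ribosomal-RNA-like transcripts also differed between the lines at W5.0, where 15.0% of all genes were higher and 15.2% lower. Core histones summed to 13024 to 21592 CPM in Bowman at W5.0 and to 26530 to 29642 CPM in mnd1.a, with 114 of 171 called higher and 1 lower. Ribosomal-RNA-like transcripts summed to 2126 to 3551 CPM in Bowman and to 23615 to 27171 CPM in mnd1.a, with 75 of 83 called higher and 0 lower. Green leaf genes summed to 1445 to 2212 CPM in Bowman and 1266 to 1962 CPM in mnd1.a, with 3 of 59 called higher and 8 lower, and 53 of the 63 in the table were above 0 in every library. Inflorescence markers were lower in mnd1.a at W3.5 and W5.0 by the sums given above. Their shares called were 28.6% and 21.4%, against 3.91% and 30.2% of all genes. The part of these in the replication result was not tested.

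The 3 PCNA genes summed to 368 to 562 CPM in mnd1.a at W3.5, where ribosomal-RNA-like transcripts were at 2208 to 3259 CPM, and to 498 to 561 CPM in mnd1.a at W5.0. Bowman libraries with the same prefix as mnd1.a W3.5 held 232 to 421 CPM of PCNA. At W2.0, within prefix 1328, Bowman held 432 to 628 CPM and mnd1.a 422 to 497 CPM. Every 1328 library of either line thus lay above every 1327 library of Bowman, at the closest by 422 against 421 CPM. The 1327 libraries of mnd1.a overlapped both. Between groups of the same prefix no PCNA gene was called in either line. From Bowman W3.5 to W5.0 the changes were -0.30 ± 0.20, -0.30 ± 0.18 and -0.19 ± 0.19 for the unplaced, 2H and 6H genes. From mnd1.a W2.0 to W5.0 they were 0.27 ± 0.22, 0.17 ± 0.19 and 0.16 ± 0.20 in the same order. Steps across prefixes called none of the 3 in mnd1.a, with median log2 fold changes of 0.07 (W2.0 to W3.5) and 0.14 (W3.5 to W5.0). In Bowman the step across prefixes, W2.0 to W3.5, lowered all 3 (median -0.58). Within prefix 1328, 54 of 83 ribosomal-RNA-like transcripts were called higher in mnd1.a at W5.0 than at W2.0, and 0 lower. The part of the prefix was not tested.

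**Figure D4:**
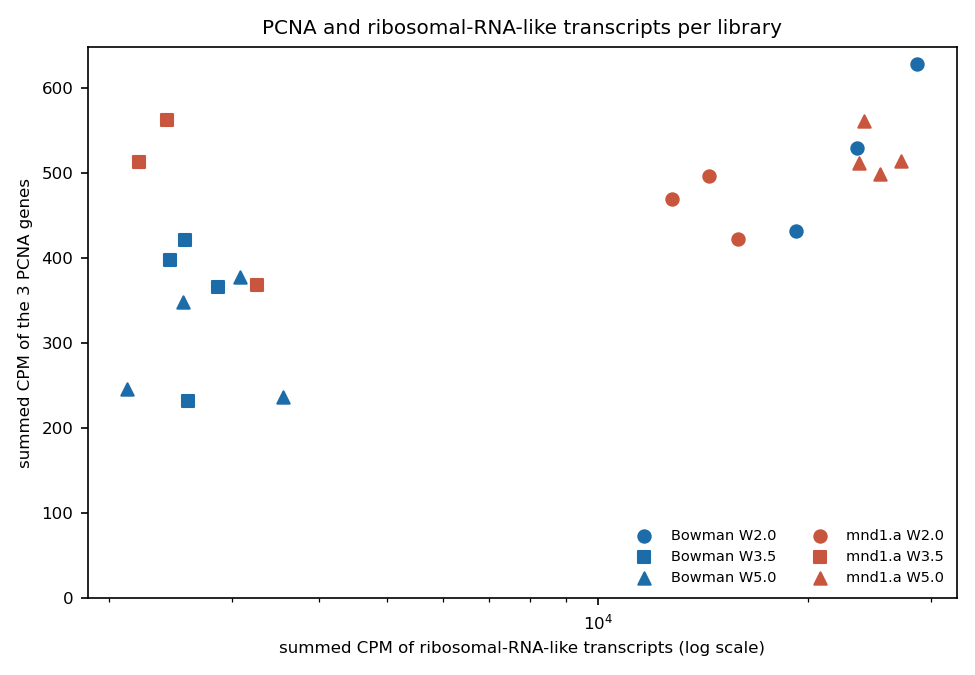
Summed CPM of the 3 PCNA genes (y axis) against summed CPM of ribosomal-RNA-like transcripts (x axis, log scale), with 1 point per library, coloured by line and shaped by stage. The libraries form separate clouds, up to 3551 CPM and from 12752 CPM on the x axis, and mnd1.a W3.5 spans 368 to 562 CPM of PCNA within the left cloud.

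Of the 6 tested B-type cyclins, which drive mitosis, 1 was called higher and 2 lower in mnd1.a at W5.0. Among all genes 15.0% were higher and 15.2% lower. The median log2 fold change of the 6 was -0.34, and 1 of them lay above 0. Cyclin-B2-2 (HORVU3Hr1G064830, 3H, 494970926 to 494973900) had 20.2, 25, 24.5 and 25.6 CPM in Bowman at W5.0 and 16.57, 17.1, 18.5 and 15.9 CPM in mnd1.a. It was lower in mnd1.a without overlap (log2 fold change -0.48 ± 0.14, adjusted p = 0.0121). Cyclin-B1-5 (HORVU0Hr1G008590), a gene of few counts, had 1.95, 3.79, 3.94 and 1.9 CPM in Bowman and 1.4, 2.01, 0.984 and 1.15 CPM in mnd1.a (-1.05 ± 0.29, adjusted p = 0.0101). Its high values came from Bowman replicates 2 and 3, the groups overlapped, and without those libraries it stood at -0.47 (adjusted p = 0.324).

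The unplaced Cyclin B1 gene HORVU0Hr1G001690 went the other way, with 8.6, 6.3, 6.31 and 8.88 CPM in Bowman at W5.0 and 13.3, 11.8, 13.8 and 13 CPM in mnd1.a. This 1.72-fold difference separated the lines (0.78 ± 0.17, adjusted p = 0.00215), and without Bowman replicates 2 and 3 it stood at 0.57 (adjusted p = 0.0686). The Cyclin B1 gene on 6H, HORVU6Hr1G022430, overlapped between the lines at W5.0 (-0.19 ± 0.08, adjusted p = 0.0697).

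Among D-type cyclins, 2 rose with stage in Bowman and 1 differed between the lines. Cyclin-D6-1 (HORVU0Hr1G003280), a D-type cyclin of the entry into the cycle, had 4.73, 6.39, 4.7 and 8.68 CPM in Bowman at W3.5 and 10.2, 11, 8.67 and 13.2 CPM at W5.0. In mnd1.a it went from 2.84, 2.7 and 5.55 CPM at W3.5 to 8.9, 10.1, 10.7 and 10.6 CPM at W5.0. It rose in both lines, by 0.83 ± 0.24 on the log2 scale in Bowman (adjusted p = 0.0447) and by 1.43 ± 0.28 in mnd1.a (adjusted p = 0.00287). At W5.0 the lines overlapped, with a log2 fold change of -0.09 ± 0.24. The unplaced CYCLIN D4 gene HORVU0Hr1G013250 rose in Bowman over the same step (0.70 ± 0.19, adjusted p = 0.0358) and stood at 0.43 ± 0.21 in mnd1.a (adjusted p = 0.212). A second D4 gene, HORVU2Hr1G030180, was the only D-type cyclin called between the lines, with 1.29 to 1.71 CPM in Bowman and 2.31 to 3.12 CPM in mnd1.a at W5.0 (0.87 ± 0.27, adjusted p = 0.0199). That call was lost without mnd1.a replicate 4 (adjusted p = 0.0574).

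**Figure D5:**
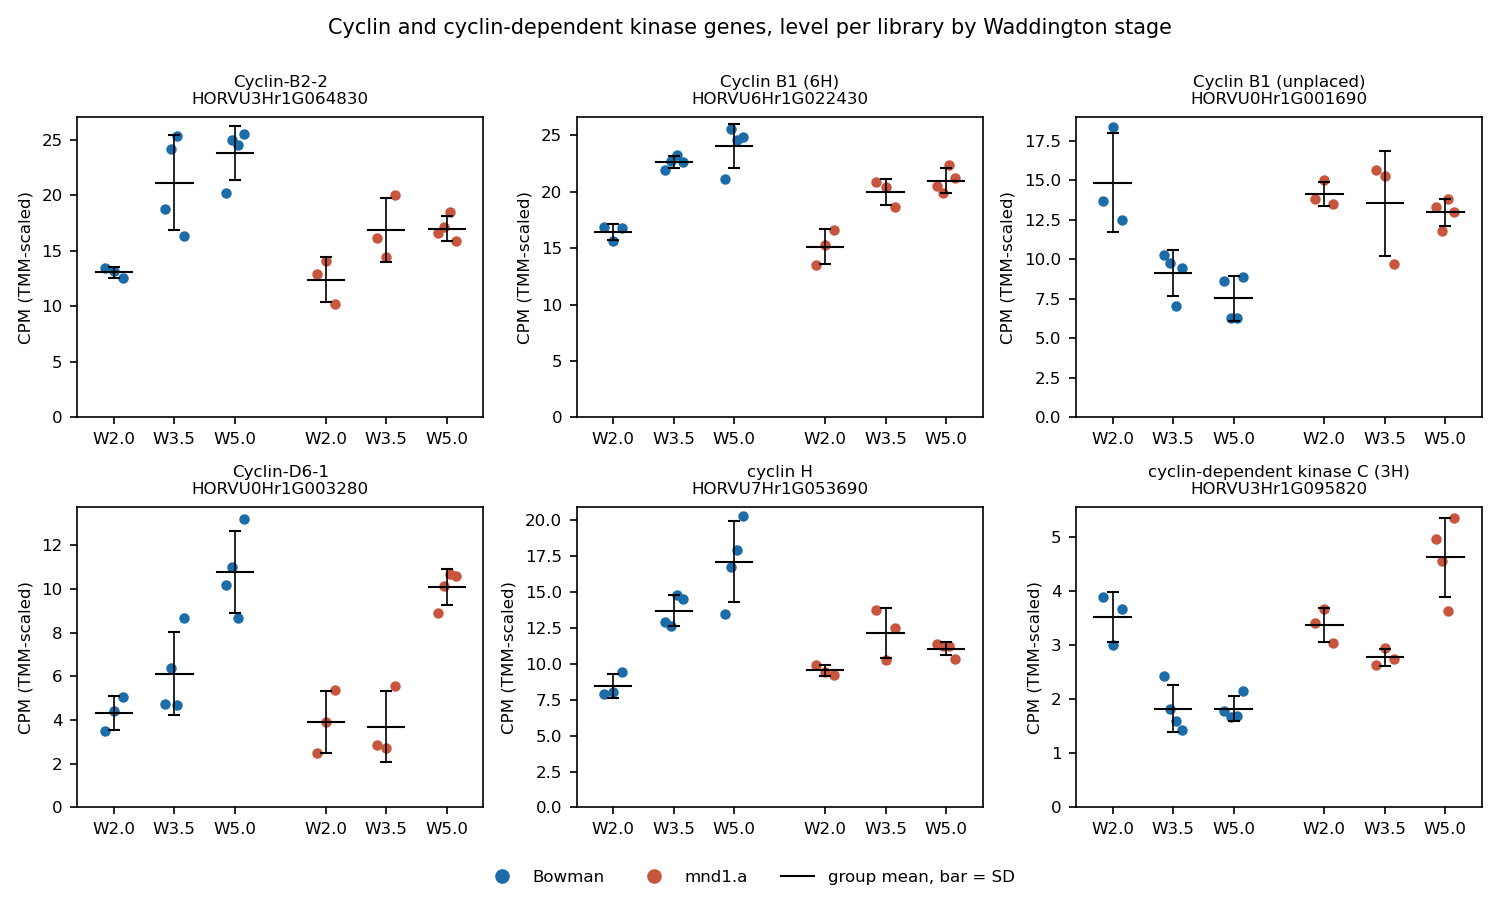
TMM-scaled CPM per library (y axis) of 4 B- and D-type cyclins, cyclin H and a C-type kinase by Waddington stage (x axis), Bowman on the left and mnd1.a on the right of each panel. Points are libraries, lines are group means and bars are SD. Cyclin H and Cyclin-B2-2 lie lower in mnd1.a at W5.0, the unplaced Cyclin B1 and the C-type kinase lie higher, and Cyclin-D6-1 is high at W5.0 in both lines.

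Cyclin H (HORVU7Hr1G053690, 7H, 210292661 to 210294026), a partner of the kinase that activates CDKs, was the only one of the 13 tested other cyclins called between the lines. It had 13.5, 16.8, 18 and 20.3 CPM in Bowman at W5.0 and 11.4, 11.3, 11.3 and 10.3 CPM in mnd1.a. The lines did not overlap, with a log2 fold change of -0.63 ± 0.12 (adjusted p = 0.000748), and the call held without any single library and without Bowman replicates 2 and 3 (adjusted p = 0.0143). At W2.0 it had 7.92, 8.03 and 9.45 CPM in Bowman and 9.94, 9.44 and 9.24 CPM in mnd1.a. In Bowman it rose from W2.0 to W3.5 and its mean was highest at W5.0, and in mnd1.a the change from W2.0 to W5.0 was not called, at 0.22 ± 0.13 (adjusted p = 0.252). The cyclin family gene HORVU0Hr1G026010 and Cyclin-P3-1 (HORVU1Hr1G062210) stood at 0.32 ± 0.13 and 0.27 ± 0.10 at W5.0, short of the threshold (adjusted p = 0.0607 and 0.0577).

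Of the 11 tested CDKs, 3 were higher and 1 lower in mnd1.a at W5.0. C-type CDKs are known for phosphorylating RNA polymerase II rather than for driving division. The C-type kinase HORVU3Hr1G095820 (3H, 650907887 to 650913519) had 1.77, 1.67, 1.69 and 2.16 CPM in Bowman at W5.0 and 4.95, 4.55, 3.63 and 5.34 CPM in mnd1.a. It was 2.53-fold higher without overlap (1.34 ± 0.18, adjusted p = 3.32e-05), the lowest adjusted p of the members at any stage, and it kept its call without Bowman replicates 2 and 3 (adjusted p = 0.00294). A second C-type kinase, HORVU4Hr1G048510, had 37.4, 30.2, 33.3 and 37.8 CPM against 44.7, 44.4, 51.1 and 46.8 CPM (0.43 ± 0.08, adjusted p = 0.000516). Another, HORVU3Hr1G026900, stood at 0.21 ± 0.11 (adjusted p = 0.154).

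CDK-like 5 (HORVU4Hr1G063050) was higher at low counts, with 1.15, 1.35, 1.35 and 0.888 CPM in Bowman and 3.38, 4.09, 2.35 and 2.55 CPM in mnd1.a (1.38 ± 0.30, adjusted p = 0.00242). CDKG-2 (HORVU2Hr1G084440), of a kinase type linked to splicing, had 73.6, 105, 91.4 and 92.7 CPM in Bowman and 71.9, 64.5, 62.1 and 63.9 CPM in mnd1.a. It was lower in mnd1.a (-0.47 ± 0.09, adjusted p = 0.000948), and the groups were separated narrowly. The CDK regulatory subunit (HORVU4Hr1G079310), a small docking protein of the kinases, had 87.6, 75.9, 72.8 and 84.5 CPM against 93.9, 93.9, 98 and 102 CPM, which did not pass the test (0.27 ± 0.11, adjusted p = 0.0587).

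Among the CDK inhibitors, HORVU1Hr1G040110 was lower in mnd1.a at W5.0, with 8.78, 10.1, 10.4 and 10.3 CPM in Bowman and 5.52, 5.48, 7.72 and 4.44 CPM in mnd1.a (-0.77 ± 0.19, adjusted p = 0.00558). HORVU6Hr1G078740 was called higher at counts near the limit of detection, with 0.355, 0, 0.0563 and 0.0634 CPM against 0.495, 0.54, 0.757 and 0.493 CPM. Its fitted log2 fold change of 2.05 ± 0.72 (adjusted p = 0.0375) lost its call in 7 of 8 fits that left out a library. The inhibitor HORVU4Hr1G080410 stayed between 20.7 and 30 CPM in both lines at W5.0 (0.10 ± 0.12).

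The 17 other DNA polymerases include enzymes of repair, of organelles and of families named after bacterial subunits. Classes follow annotation wording, and a polymerase counted as replicative only when named alpha, delta, or epsilon subunit 3 or B. Subunits of the replicative polymerases with other annotations may therefore be among the 17. Y-family polymerase H (HORVU3Hr1G072920, 3H, 550211695 to 550216887), a polymerase that copies past DNA damage, had 27, 27.9, 30.3 and 29.2 CPM in Bowman at W5.0 and 19, 17.8, 18.6 and 17.5 CPM in mnd1.a. It was lower without overlap (-0.65 ± 0.10, adjusted p = 0.000123). The gene annotated as polymerase III gamma/tau on 3H, HORVU3Hr1G069340, was higher at W5.0, with 59.8, 49.3, 50.4 and 49.8 CPM in Bowman and 66.4, 62.5, 69.2 and 65.3 CPM in mnd1.a (0.33 ± 0.07, adjusted p = 0.00141). At W3.5 it had 55.2, 55, 59.2 and 53.4 CPM against 71.6, 69.3 and 65.2 CPM (0.30 ± 0.07, adjusted p = 0.0239). It separated the lines at both stages, and it carries the same annotated Pfam domain, PF13177, as the 2H RFC gene called at W3.5. Polymerase III epsilon (HORVU2Hr1G103170) was higher at W5.0 as well (0.36 ± 0.10, adjusted p = 0.00893).

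The W3.5 calls of these 2 genes were fragile. The gamma/tau gene lost its call in 4 of 7 fits without a library (Bowman replicates 2 and 4, mnd1.a replicates 1 and 2, adjusted p of up to 0.113). The RFC gene lost its call in 5 of 7 (the same libraries and Bowman replicate 3, adjusted p of up to 0.159). Counts at W3.5 ran from 0 without Bowman replicate 2, mnd1.a replicate 1 or mnd1.a replicate 2 to 5 without mnd1.a replicate 3 and 7 without Bowman replicate 1, with 1 without Bowman replicate 4.

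Within Bowman, the step from W2.0 to W3.5 raised 9 members and lowered 10, where 14.2% of all genes rose and 15.2% fell. Among the 31 replication machinery genes 5 fell and none rose, and the share that fell, 16.1%, was near the 15.2% of all genes. All 3 PCNA genes fell, by 0.71 ± 0.22, 0.55 ± 0.19 and 0.58 ± 0.20 on the log2 scale for the unplaced, 2H and 6H genes (adjusted p = 0.0199, 0.0354 and 0.038), as did the 2H RFC gene HORVU2Hr1G083560 and polymerase epsilon subunit 3 (HORVU4Hr1G001140). Polymerase V (HORVU6Hr1G018330), named after a yeast protein of ribosomal RNA synthesis, fell by 0.45 ± 0.10 (adjusted p = 0.00358). The prefix changed over this step from 1328 to 1327, so stage and prefix cannot be told apart in it. Over the same step 47 of 59 green leaf genes rose and 1 fell, with sums of 323 to 571 CPM at W2.0 and 1485 to 2019 CPM at W3.5. Of the core histones 83 of 171 fell and 2 rose, and of the inflorescence markers 22 of 42 rose and 3 fell. Their part in the fall of the 5 called replication machinery genes was not tested.

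Among the risers were Cyclin-B2-2, from 13.5, 13.2 and 12.5 CPM to 18.8, 24.1, 25.4 and 16.4 CPM (0.70 ± 0.15, adjusted p = 0.00241), cyclin H (0.69 ± 0.13, adjusted p = 0.00089) and the 6H Cyclin B1 gene HORVU6Hr1G022430. The last had 16.9, 15.6 and 16.8 CPM at W2.0 and 21.9, 22.7, 23.2 and 22.7 CPM at W3.5 (0.46 ± 0.09, adjusted p = 0.000875). Both lines shared this rise, at 0.40 ± 0.09 in mnd1.a (adjusted p = 0.0224). Without Bowman W2.0 replicate 1 or 2 the step called 10 or 7 members, and with other single libraries left out 14 to 20.

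From W3.5 to W5.0 in Bowman, 5 members rose and none fell, where 3.89% of all genes rose and 3.70% fell. They were Cyclin-D6-1, CYCLIN D4, the cyclin family gene HORVU5Hr1G028510, the RFC subunit 5 gene HORVU1Hr1G050450 and the inhibitor HORVU7Hr1G035770, the last at 0.302 to 0.703 CPM before and 1.11 to 1.67 CPM after (1.46 ± 0.40, adjusted p = 0.036). All were called within prefix 1327. The count fell to 0 without Bowman W3.5 replicate 1 or 2 or without Bowman W5.0 replicate 2, 3 or 4, and to 2 without Bowman W3.5 replicate 3. It rose to 10 without Bowman W3.5 replicate 4 or Bowman W5.0 replicate 1.

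In mnd1.a, 4 members rose and none fell from W2.0 to W3.5, where 1.59% of all genes rose and 2.19% fell. They were the 6H Cyclin B1 gene, the cyclin-related gene HORVU4Hr1G070180 (0.32 ± 0.08), Y-family polymerase H on 4H (HORVU4Hr1G013680, 0.49 ± 0.11) and HORVU2Hr1G020260 (0.42 ± 0.10), annotated only as a DNA polymerase. The PCNA genes stood at 0.02 to 0.13 over this step, which crosses from prefix 1328 to 1327 as the Bowman step does. The count was 0 without mnd1.a W2.0 replicate 1 or mnd1.a W3.5 replicate 1, and 1 without mnd1.a W2.0 replicate 2, mnd1.a W2.0 replicate 3 or mnd1.a W3.5 replicate 2.

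From W3.5 to W5.0 in mnd1.a, 4 members rose and 2 fell, where 5.12% of all genes rose and 5.01% fell. Cyclin-D6-1, the C-type kinase HORVU3Hr1G095820 (0.73 ± 0.19), RFC subunit 5 (HORVU1Hr1G050450, 0.45 ± 0.11) and polymerase III gamma (HORVU7Hr1G074870, 0.33 ± 0.10) rose. The Y-family polymerase on 3H fell by 0.36 ± 0.11 and HORVU2Hr1G020260 fell by 0.31 ± 0.09. The count was 1 without mnd1.a W3.5 replicate 1 or mnd1.a W5.0 replicate 4, 2 without mnd1.a W3.5 replicate 2 and 3 without mnd1.a W5.0 replicate 2 or 3. The step crosses from prefix 1327 to 1328, with 74 of 83 ribosomal-RNA-like transcripts higher and 0 lower, so stage and prefix cannot be told apart in it either.

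The whole span from W2.0 to W5.0 in mnd1.a, a comparison added after seeing the data, lies within prefix 1328. Ribosomal-RNA-like transcripts were not level within it, at 12752 to 15892 CPM at W2.0 and 23615 to 27171 CPM at W5.0. Of the 83 tested, 54 were called higher at W5.0 and 0 lower, and their part in this comparison was not tested. Over the span 12 members rose and 1 fell, where 8.66% of all genes rose and 10.4% fell. Cyclin-D6-1 (1.35 ± 0.28, adjusted p = 0.00346), Cyclin-B2-2 (0.46 ± 0.15), the 6H Cyclin B1 gene (0.47 ± 0.09) and the RFC subunit 5 gene HORVU1Hr1G050450 (0.65 ± 0.12) were among the risers. Leaving out single libraries gave 5 to 9 called members, with 5 without mnd1.a W2.0 replicate 1, 7 without mnd1.a W2.0 replicate 2 or mnd1.a W5.0 replicate 4, and 8 without mnd1.a W5.0 replicate 1 or 2.

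The last question was whether the line difference itself changed between stages. From W2.0 to W3.5 no member was called, nor from W3.5 to W5.0, where 0.189% and 1.02% of all genes were. At an unadjusted p under 0.05 there were 11 and 8 members, against 13.4% of all genes in both, and DESeq2 called 1 and 0. From W2.0 to W5.0, 9 members had a larger and 3 a smaller log2 fold change at W5.0, where 5.09% and 5.19% of all genes did. They included the 3 PCNA genes, at 1.28 ± 0.31, 1.03 ± 0.27 and 0.92 ± 0.29 for the unplaced, 2H and 6H genes (adjusted p = 0.015, 0.023 and 0.0479). The C-type kinase HORVU3Hr1G095820 (1.40 ± 0.27, adjusted p = 0.00319) and cyclin H (-0.80 ± 0.18, adjusted p = 0.0107) were the only 2 of the 12 whose call held in all 14 fits that left out a library. Without Bowman W5.0 replicates 2 and 3 the unplaced PCNA gene stood at 0.96 (adjusted p = 0.0739). The count was 2 to 5 without Bowman W2.0 replicate 1 or 2, Bowman W5.0 replicate 3, or mnd1.a W2.0 replicate 2 or 3. It was 6 or 7 without Bowman W5.0 replicate 2, mnd1.a W2.0 replicate 1 or any mnd1.a W5.0 library. The W2.0 groups share prefix 1328 and the W5.0 groups do not, so this change and the prefix cannot be told apart. In the same contrast 1 of 59 green leaf genes had a larger and 36 a smaller log2 fold change at W5.0 (median -1.63). At W2.0 itself 27 of the 59 were higher in mnd1.a and 0 lower, with sums of 928 to 1615 CPM against 323 to 571 CPM in Bowman. The part of leaf tissue in these changes was not tested.

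In the authors' deposited table, 0, 2 and 23 of the 96 members passed an FDR of 0.05 in order of stage, where 1.08%, 2.73% and 26.3% of all genes did. All of these members were also called in the refit.

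Of 213 further cell cycle and replication genes outside the rule, 209 were tested. At W5.0, 21 were higher and 38 lower in mnd1.a (median 0.01), at W3.5 2 and 3 (median 0.08), and at W2.0 1 and 0 (median -0.03). The shares called in either direction were 28.2%, 2.39% and 0.478%, against 30.2%, 3.91% and 0.790% of all genes, so none lay far from the background. The sides were uneven at W5.0, with more genes lower than higher, where 15.0% of all genes were higher and 15.2% lower. Replication protein A 70 kDa subunit B (HORVU5Hr1G044830), which coats single-stranded DNA, had 157, 227, 214 and 163 CPM in Bowman at W5.0 and 106.8, 88.7, 84.5 and 82.7 CPM in mnd1.a, without overlap (-1.07 ± 0.13, adjusted p = 9.95e-06). Topoisomerase 6 subunit A3 (HORVU7Hr1G071060) was lower at W3.5 (-0.59 ± 0.12, adjusted p = 0.0083) and W5.0 (-0.75 ± 0.11, adjusted p = 8.89e-05). The ribonucleotide reductase large subunit gene HORVU2Hr1G065760, whose enzyme makes the building blocks of DNA, was the single one of them called at W2.0, and it was called higher in mnd1.a at every stage. It was at 0 to 0.1285 CPM in the 11 Bowman libraries, 9 of them at 0, and at 1.19 to 2.7 CPM in mnd1.a. A second gene for that subunit, HORVU3Hr1G089710, was called at W3.5 and W5.0, at 0 to 0.0666 CPM in Bowman and 0.244 to 1.56 CPM in mnd1.a.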

How the data were processed

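Estimated counts of 24318 genes were deposited for 21 libraries, headed raw counts per the file headers, and 94.9% of the values are not whole. Salmon, BWA 0.7.15, GATK and limma are named without roles in the submitters' processing notes. No source used here names the genome build, and positions are as the table gives them. Count columns headed W3.0 were taken as W3.5 of the labels. Replicate numbers are those of the column headings, are not in the labels, and pair nothing. The authors' log2 fold changes and FDR values (adjusted p-values) are used as deposited, and 21 further columns, which hold per-sample log2 values, were left out. The sample of cultivar Mesa was not analysed here.

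Counts were rounded and filtered with filterByExpr (minimum count 10, minimum total 15), which left 21132 genes. Libraries were scaled by TMM (factors 0.902 to 1.08). A single model with a mean per group was fitted with edgeR 4.0.16 in R 4.3.3 (robust quasi-likelihood F test), and genes were called at a Benjamini-Hochberg adjusted p under 0.05. Standard errors derive from the F statistic. The script was tested on simulated data. DESeq2 1.42.0, its size factors, no filter, fits of 2 groups and left-out libraries were alternatives. Members and lists were chosen with earlier results of these data known. Genes named with values are those called between lines, the 6 highest and 6 lowest called in a stage step, up to 10 called interactions, the 2 of each class with the highest mean CPM, and all MCM and PCNA genes. None of the gene IDs matched the reference table, so no sequence is shown. CPM are not scaled by transcript length, so beyond that choice of genes levels were not compared between genes.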

Additional observations from a re-analysis of the deposited data

Results flagged for a closer look

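In 12 genes the line difference at W5.0 differed from that at W2.0 by the test of the difference itself (log2 scale, adjusted p under 0.05). These were the 3 PCNA genes HORVU0Hr1G031140 (1.28), HORVU2Hr1G088030 (1.03) and HORVU6Hr1G088120 (0.92), the Cyclin B1 gene HORVU0Hr1G001690 (0.86), and the C-type kinases HORVU3Hr1G095820 (1.4) and HORVU4Hr1G048510 (0.38). The RFC gene HORVU2Hr1G083560 (0.62), polymerase epsilon subunit 3 HORVU4Hr1G001140 (0.57) and the gamma/tau gene HORVU3Hr1G069340 (0.38) also gained. The CDK inhibitor HORVU1Hr1G040110 (-0.98), cyclin H HORVU7Hr1G053690 (-0.80) and the Y-family polymerase HORVU3Hr1G072920 (-0.53) fell behind. Library code prefix moves with these differences, and its part cannot be told apart from that of the line.

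Single libraries stood apart from the 3 others of their group in 9 of 153 checks by Dixon's criterion, which chance alone passes in about 1 in 20. In Bowman W3.5 these were a low 57.2 CPM of HORVU0Hr1G026010, a low 5.3 CPM of HORVU5Hr1G028510, a low 213 CPM of HORVU6Hr1G018330, a high 67.5 CPM of HORVU2Hr1G020260 and a high 43.1 CPM of HORVU4Hr1G048510. In Bowman W5.0 they were a high 59.8 CPM of HORVU3Hr1G069340 and a low 120 CPM of HORVU5Hr1G104200. In mnd1.a W5.0 they were a high 224 CPM of HORVU4Hr1G015110 and a low 10.3 CPM of cyclin H (HORVU7Hr1G053690).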

How the results depend on the processing

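No paired analysis was possible because the labels give the libraries no replicate numbers. Among the genes named with values, no call between lines or for a change of the line difference changed sign in any alternative run. Signs of stage-step calls and of uncalled changes were not checked. With DESeq2 size factors or without a filter every count stayed within 1.5 times its value. Fits of only the 2 groups called 0 members at W3.5. DESeq2's Wald test called 8 members from W3.5 to W5.0 in Bowman and 1 for the change of the line difference from W2.0 to W3.5. Without Bowman W3.5 replicates 2 and 4, the Bowman step from W3.5 to W5.0 called 16 members, the change of the line difference from W3.5 to W5.0 called 1, and both W3.5 calls were lost, although 2 members were called. Without Bowman W5.0 replicates 2 and 3 (added after seeing the data) the W5.0 line comparison called 9 members, the Bowman step 0 and the change from W2.0 to W5.0 called 3. Leaving out single libraries gave 0 to 0 members at W2.0, 0 to 7 at W3.5, 18 to 30 at W5.0, 7 to 20 and 0 to 10 in the Bowman steps, 0 to 4 and 1 to 4 in the mnd1.a steps, 5 to 9 over the mnd1.a span, and 0 to 1, 0 to 1 and 2 to 14 for the changes of the line difference. The cause of these shifts was not tested, beyond the fewer libraries used. Genes under 1 CPM are limited by depth.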
